A study of Homo sapiens with 12 samples.

Results

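Transcripts were compared between OVCAR-3 cells that received interferon alpha (IFNa, a secreted antiviral cytokine of the type I family) and cells that received the solvent DMSO, each for 6 h. The comparison uses 3 IFNa and 3 DMSO libraries of the 12 libraries in the study and every gene whose normalized reads averaged 10 or more across those 12, which kept 15990 of 28035 listed genes. OVCAR-3 is an established line grown from a human ovarian adenocarcinoma, with the genotype given as wt in all groups. Of the other libraries, 3 came from cells given FC-A (Fusicoccin A, a fungal compound that stabilises complexes of 14-3-3 adapter proteins) and 3 from cells given FC-A with IFNa (the Combination). The dose and subtype of IFNa, the amount of DMSO and whether the IFNa was itself given with DMSO are not given by the sources used here. All cells were of 1 line, and nothing states that replicates were separate cultures. A p-value here therefore reflects only the spread within groups over all 12 libraries, and that spread may be technical.

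The reads assigned to genes came to 33.8 to 35.9 M in the DMSO libraries and 33.2 to 39.5 M in the IFNa libraries. The main principal component of all 12 libraries (77.7% of the variance) set the libraries with IFNa apart from those without it. On the next (6.51%), replicate 3 was the lowest library of every group, so results were also computed without replicate 3. Cells carried the transcripts of an epithelium. The summed level of 20 epithelial surface and keratin genes was 462586 to 478206 normalized reads in DMSO and 451667 to 505736 in IFNa, and EPCAM, an epithelial adhesion molecule, read 8990.1, 8866 and 8896 in DMSO and 8924, 9247 and 8456 in IFNa.

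Type I interferon binds a receptor made of IFNAR1 and IFNAR2, whose kinases TYK2 and JAK1 phosphorylate transcription factors of the STAT family. STAT2 and IRF9 belong to the factor ISGF3, which binds the interferon-stimulated response element in the promoters of its target genes, while pairs of STAT proteins bind a different sequence, the gamma-activated site. The induced genes are known for blocking the entry, translation and copying of viruses, for displaying antigens and for attracting lymphocytes, and a part of them sends negative feedback to the receptor.

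The core of the response element is taken here as GAAA, any 2 bases and GAAA again, and it was searched on both strands in the 250 bases upstream of the first listed RefSeq start of each gene (build GRCh38.p14). Promoters were at hand for 11615 of the genes tested. They are shown for the 3 genes among the 20 with the largest rises whose upstream bases hold the core, since these carry the element that the response is known for. Each is given 5′ to 3′ on the strand of its gene, ending at the base before the start, with every match to the core in capitals. CXCL10 is shown at chr4:76023498-76023747 on the minus strand, IFIT1 at chr10:89392503-89392622 on the plus strand and IFIT3 at chr10:89327747-89327996 on the plus strand.
CXCL10: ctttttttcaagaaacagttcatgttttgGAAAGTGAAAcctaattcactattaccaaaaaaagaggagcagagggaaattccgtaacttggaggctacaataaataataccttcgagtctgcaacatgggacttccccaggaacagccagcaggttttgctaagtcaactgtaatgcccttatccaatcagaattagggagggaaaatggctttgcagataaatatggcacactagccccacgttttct
IFIT1: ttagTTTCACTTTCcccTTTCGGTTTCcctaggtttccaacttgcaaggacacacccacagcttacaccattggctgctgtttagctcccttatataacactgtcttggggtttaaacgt
IFIT3: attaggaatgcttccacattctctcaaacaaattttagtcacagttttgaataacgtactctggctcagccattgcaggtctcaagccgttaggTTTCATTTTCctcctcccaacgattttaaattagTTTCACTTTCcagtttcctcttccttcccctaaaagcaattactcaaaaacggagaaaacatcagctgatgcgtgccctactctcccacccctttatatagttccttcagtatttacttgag
The match in CXCL10 begins 221 bases before the start. Those in IFIT1 begin 116 and 103 bases before it and those in IFIT3 156 and 122 bases before it, and in both IFIT genes they read as the reverse complement. Of the 20 genes with the largest rises, 12 had a promoter in the table, and 9 of these held no match to the core in this window.

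The share of genes with the core was higher the larger the rise. The core stood upstream of 36 of 112 genes (32.1%, 95% Wilson interval 24.2 to 41.3%) that rose at least 8-fold, 16 of 109 (14.7%, 9.24 to 22.5%) that rose 4 to 8-fold and 15 of 389 (3.86%, 2.35 to 6.26%) that rose 2 to 4-fold. Among genes that rose less than 2-fold the share was 2.95%, among genes that fell at least 2-fold 1.78%, and over all genes tested 2.29%. It was 3.07% over all 27305 promoters listed. With only the last 100 upstream bases searched, the shares were 18.8%, 9.17% and 2.06% in the 3 classes of largest rise and 0.887% over all genes tested. The median match began at -76.5 in the class of at least 8-fold and at -129.5 over all genes tested, counting from -1 at the base before the start. By role, the core was upstream of 8 of 16 RNA-binding antiviral genes with a promoter in the table, 7 of 18 genes of MHC class I presentation and 4 of 17 genes of PARP enzymes and nuclear bodies. It was upstream of 1 of 11 chemokines, 0 of 6 interferon regulatory factors, 0 of 16 receptor, kinase and STAT genes, 0 of 24 genes of MAPK feedback and EGF receptor ligands, and 0 of 17 AP-1 and immediate early genes. In lists of this size a count of 0 lies near the share of all genes. The gamma-activated site, written as TTCNNNGAA (its own reverse complement in pattern), was upstream of 13.4% of genes with a rise of at least 8-fold and 5.4% of all genes tested. Of the 12 promoters searched among the 20 largest rises, that of CXCL11 alone held a match to it. A match is a description of letters, and no match says nothing of the factor.

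**Figure D1:**
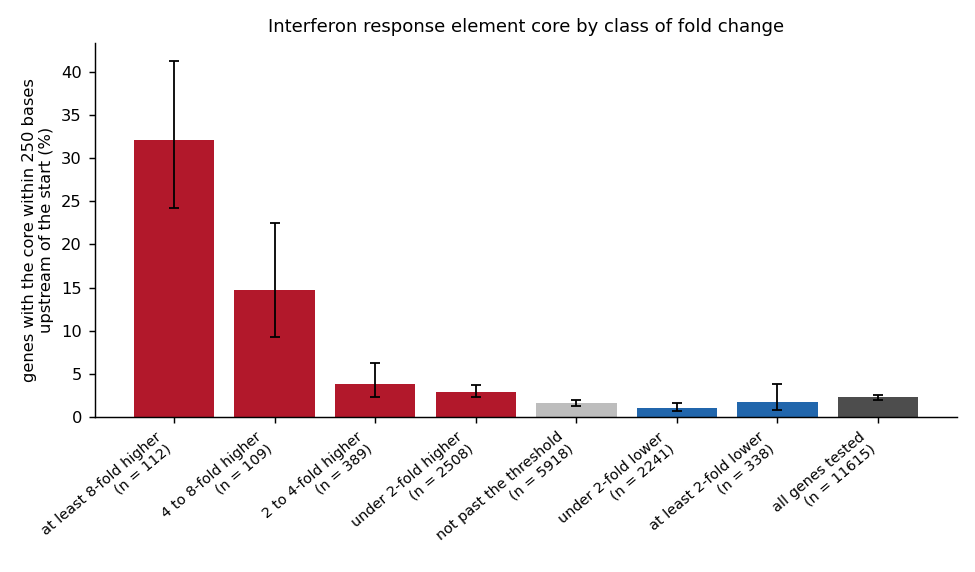
Share of genes, in percent, whose 250 bases upstream of the first listed RefSeq start hold the response element core, by class of fold change between IFNa and DMSO; bars are shares, lines are 95% Wilson intervals and n is the number of genes with a promoter. The share is 32.1% at rises of at least 8-fold and 2.29% over all genes tested.

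Values below are the authors' normalized reads, given for replicates 1, 2 and 3 in that order. They are not divided by transcript length, so levels are compared between libraries and not between genes. Fold changes are on the scale of log2(normalized reads + 1), with the standard error (SE) of the log2 value and a two-sided limma p adjusted over all genes tested by the Benjamini-Hochberg method, called below 0.05. In all, 7507 genes passed (46.9%), 4067 of them higher (25.4%) and 3440 lower (21.5%) with IFNa. The 3 libraries of 1 group did not overlap those of the other in 58.2% of genes, with IFNa higher in 30.4% and lower in 27.9%. With so many calls, a list of genes reads as responding only against these shares. Most calls were small, and 4529 of them (60.3%) were changes of less than 1.5-fold. The split between rises and falls also rests on the scaling. Rises were 54.2% of calls here, 36.6% after quantile normalization and 25.5% after scaling to the library total, which lowered the median gene by 0.19 on the log2 scale. The authors' values themselves sum to 32.2 to 32.6 M in DMSO and 36.3 to 37.6 M in IFNa.

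At least 2-fold rises were seen in 928 genes (5.8%) and falls of that size in 511 (3.2%), at least 8-fold rises in 169 (1.06%) and such falls in 3. At least 64-fold rises were seen in 35 genes, and no gene fell 16-fold. The 169 genes that rose at least 8-fold took 0.17% of reads in the DMSO libraries and 4.43% ± 0.167 (SD, n = 3) in the IFNa libraries. Large falls lay mostly among weakly expressed genes. Of genes with a DMSO mean of 10 to 100 normalized reads, 8.36% fell at least 2-fold, against 2.84% at 100 to 1000 and 0.496% at 1000 or more. Another 283 genes had a DMSO mean under 10 and passed the filter through other libraries, where they had to be higher. They gave 154 of the at least 2-fold rises, 56 of the at least 8-fold rises and no fall, so among genes with a DMSO mean of at least 10 there were 774 rises and 511 falls of at least 2-fold, and 113 rises of at least 8-fold. The gene lists below hold such genes. Without them, rises numbered 11 of 12 for chemokines, 12 of 17 for interleukins and interferons, 15 of 17 for complement and coagulation, 12 of 14 for the APOBEC, SAMD9, Schlafen and APOL families, 15 of 19 for sensors and 24 of 28 for MAPK feedback, and the remaining lists held at most 2 of them each. Members with a mean under 10 over the 12 libraries were not tested, and 1370 of the 1397 list symbols were found among the deposited names.

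**Figure D2:**
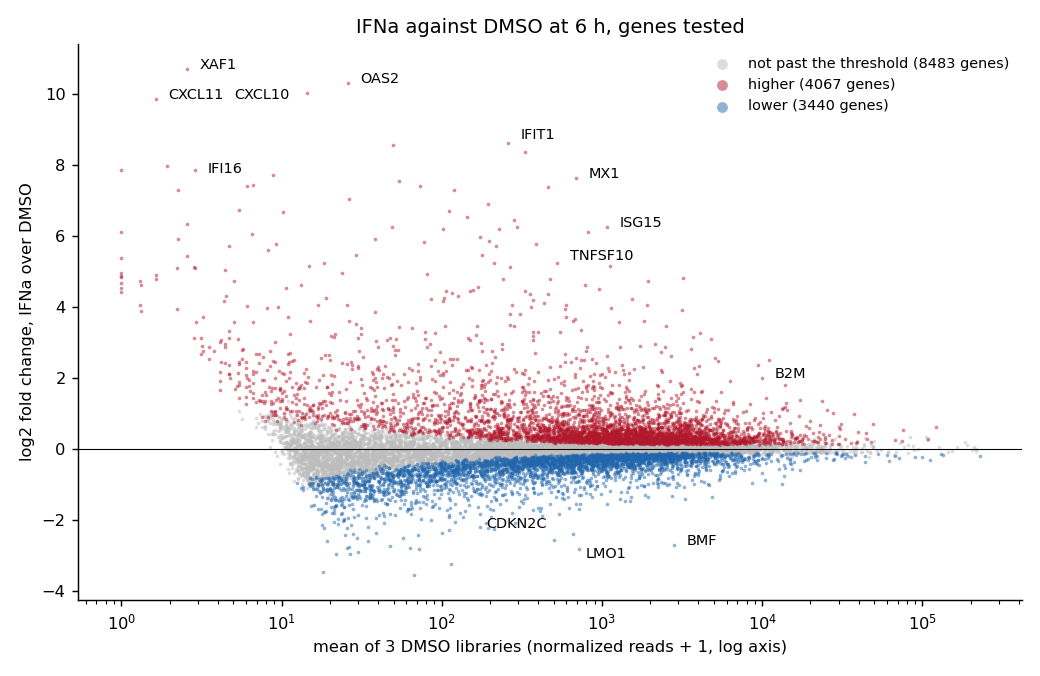
Log2 fold change of IFNa over DMSO (vertical axis) against the mean of the 3 DMSO libraries in normalized reads plus 1 (horizontal log axis), 1 point per gene tested, coloured by the limma call. Rises reach over 10 on the log2 scale, most falls beyond -2 lie at low levels, and BMF and LMO1 lie apart from them.

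The receptor for type I interferon was expressed, and its subunits changed little. IFNAR1 read 2560.4, 2596 and 2589 in DMSO and 2831, 2554 and 2749.6 in IFNa, overlapping ranges with a log2 fold change of 0.07 (SE 0.06, limma adjusted p = 0.329). IFNAR2, which holds JAK1, rose by 0.32 on the log2 scale (0.13 and not past the threshold with scaling to the library total), and TYK2 read 3135, 3205 and 3152 against 3215, 3047 and 3627. JAK1 rose by 0.75 and JAK2, a kinase of the interferon gamma receptor, by 2.10. Of 18 receptor, kinase and STAT genes tested, 12 rose, 1 fell and 5 did not pass, with a median of 0.61 against -0.0065 over all genes tested. The gene that fell was IL10RB, a chain of the interferon lambda receptor (log2 fold change -0.23), which lost its call without DMSO replicate 2 or 3, IFNa replicate 1 or 2, FC-A replicate 2 or Combination replicate 1, with values from -0.23 to -0.18.

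STAT2 and IRF9 of ISGF3 rose. STAT2 read 2289, 2194 and 2517 in DMSO and 15396, 14053 and 16843 in IFNa (6.60-fold, log2 SE 0.10, limma adjusted p = 3.58e-11). IRF9, the DNA-binding part, was read at 27.2, 31.6 and 29.6 in DMSO and 208, 145 and 280.4 in IFNa. Neither gene's ranges overlapped, and in both replicate 2 was the lowest IFNa library. STAT5A rose by 1.54 on the log2 scale and STAT3 by 0.79.

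Interferon regulatory and partner factors rose in 12 of 12 tested genes, with a median log2 fold change of 1.41. IRF7, which amplifies interferon production, read 350.1, 363 and 354 in DMSO and 7164, 6857 and 8029.6 in IFNa. IRF1, a factor of antiviral and antigen presentation genes, read 1285, 1281 and 1298 and 9185, 9359 and 9479. BATF2, a partner of IRF1 and IRF8, rose from 1.81, 6.70 and 6.67 to 893, 841 and 1047, 168-fold. The groups did not overlap in any of the 3 genes, and the DMSO level of BATF2 rests on few reads. ETV7, an interferon-induced repressor, rose by 2.88 on the log2 scale, IRF2 by 1.45, IRF8 by 0.80 and IRF3, the factor downstream of nucleic acid sensors, by 0.59.

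Negative feedback was uneven. USP18, which removes ISG15 and blocks IFNAR2, went from 444, 453 and 523 to 13634, 13863 and 11943. SOCS1, an inhibitor of JAK kinases, read 87.1, 86.1 and 59.1 in DMSO and 672, 667 and 623 in IFNa, 8.47-fold (SE 0.14). SOCS2 rose by 0.996 on the log2 scale and SOCS3 by 0.50, whereas CISH (-0.14) did not pass. PIAS3, which restrains STAT3, fell by 0.21, and lost its call without DMSO replicate 1 or 3 or IFNa replicate 1 or 2, with values from -0.19 to -0.16. Over 19 feedback genes, 12 rose, 1 fell and 6 did not pass, with a median of 0.27. With scaling to the library total 7 rose and 3 fell, with a median of 0.08, and after quantile normalization 2 fell and the median was 0.07.

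**Figure D3:**
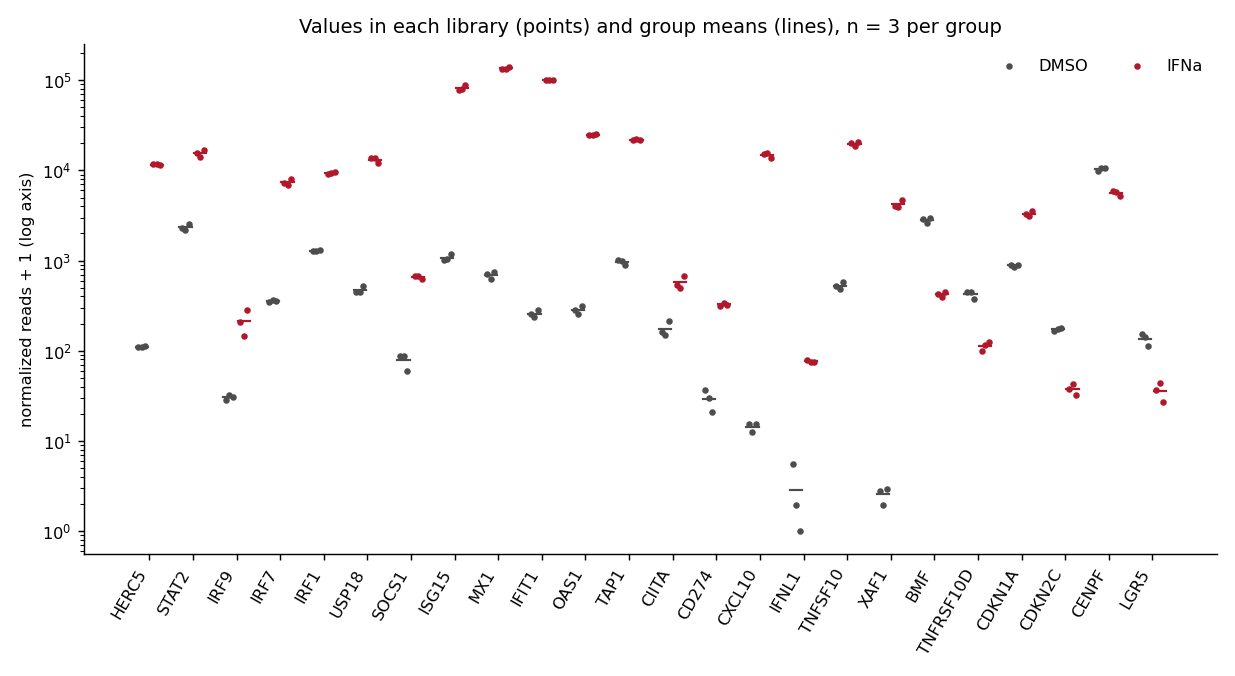
Normalized reads plus 1 (vertical log axis) of 24 genes in each DMSO (grey) and IFNa (red) library, with lines at the group means, n = 3 per group. Points of the groups do not overlap for any of these genes, and BMF, TNFRSF10D, CDKN2C, CENPF and LGR5 lie lower with IFNa.

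Antiviral effectors that bind RNA rose as a whole. Among 21 RNA-binding effectors all 21 rose (background 25.4%), 19 of them at least 2-fold, with a median log2 fold change of 5.24 and the largest, 10.30, in OAS2, an enzyme that makes the messenger 2-5A. OAS1 of the same family read 281, 255 and 312 in DMSO and 24530.4, 24459 and 25384 in IFNa. IFIT1, which binds viral RNA caps, read 254, 233 and 282 and 101419, 100128 and 100791. IFIT3, its partner, read 498, 421 and 462 and 76681, 76359.6 and 78216 (167-fold, log2 SE 0.06, limma adjusted p = 1.09e-18). In each of them the 3 IFNa libraries lay close together and far above every DMSO library. DDX60 rose by 5.24 on the log2 scale and SAMHD1, which depletes nucleotides, by 3.95. EIF2AK2, the kinase PKR that stops translation, rose by 2.87, ADAR, which edits RNA, by 1.78 and ZC3HAV1, the protein ZAP, by 0.94. The counting program is not given, so single members of families with near-identical copies (OAS, IFIT, IFITM, GBP, APOBEC3, HLA, IFNL, C4A and C4B) are uncertain where reads could be shared.

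ISG15, a ubiquitin-like modifier, and all 6 other tested genes that attach or remove it rose at least 2-fold, with a median of 4.18. ISG15 read 1017, 1028 and 1189 in DMSO and 78310.4, 79830.0 and 89029 in IFNa. HERC5, its main ligase, read 109.7, 109 and 113 and 11726, 11619 and 11343, 104-fold. The activating enzyme UBA7 rose by 4.04 on the log2 scale and the conjugating enzyme UBE2L6 by 3.56. Every step of the modification was therefore represented among the risers, with TRIM25 the least raised (1.90).

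Genes of entry restriction rose in 8 of 9 tested, with a median of 2.32. IFITM1, which hinders fusion of viral and cell membranes, read 38.1, 43.1 and 61.98 in DMSO and 3464, 3273 and 4218 in IFNa, and IFITM2 and IFITM3 rose by 2.09 and 2.32 on the log2 scale. BST2, the tether that holds budding virus, went from 243, 208 and 273 to 6574, 6077 and 7383. Among 12 GTPases of the dynamin and guanylate-binding families, 9 rose, 1 fell and 2 did not pass. MX1 read 706, 616 and 748 in DMSO and 134691, 134208 and 139391 in IFNa, and MX2 read 137, 139 and 151 and 12899.6, 12544 and 14310.1. GBP1, which coats microbes in the cytosol, rose 18.6-fold. ATL1, an atlastin of the endoplasmic reticulum, fell by 0.78 on the log2 scale.

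Restriction factors of the APOBEC, SAMD9, Schlafen and APOL families rose in 15 of 17 tested genes. APOBEC3G, a cytidine deaminase, was counted at 3 reads over the 3 DMSO libraries and rose 469-fold by the ratio of reads scaled to library size (95% interval from counting error 160.2 to 2278). SAMD9L, a translation inhibitor, read 42.6, 58.4 and 58.2 in DMSO and 10545, 10105 and 9419 in IFNa. APOBEC3A rose by 4.300 on the log2 scale and APOBEC3B by 0.93. SLFN5, of the Schlafen family, rose by 2.27. APOL1, a channel that kills parasites, rose by 4.93 and APOL2 by 2.69.

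PARP enzymes and nuclear body proteins rose in 19 of 22 tested genes, with a median of 2.72, and split by member. PARP9, PARP10, PARP12 and PARP14, members that do not build long ADP-ribose chains, rose by 4.05, 4.05, 3.72 and 4.82 on the log2 scale. PARP1, the DNA damage enzyme, did not pass (-0.12), and PARP2 fell by 0.23. PARP2 lost its call without any 1 of the DMSO libraries or IFNa replicate 3, with values from -0.24 to -0.13, and PARP1 was called lower after quantile normalization (-0.40) and scaling to the library total (-0.31). TRIM22 read 113, 106 and 136 in DMSO and 18725, 17029.9 and 19785 in IFNa. PML, which organises nuclear bodies, rose 7.67-fold, SP100 10.1-fold and SP110 21.6-fold.

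Sensors of nucleic acids and microbes rose in 18 of 22 tested genes. DDX58, the RNA sensor RIG-I, read 1150.1, 1080.1 and 1149 in DMSO and 40570.3, 40448 and 38236 in IFNa. IFIH1, the RNA sensor MDA5, read 396, 387 and 382 and 21585, 20659 and 21889, and DHX58, their relative LGP2, rose by 4.37 on the log2 scale. IFI16, a DNA sensor, was at 1.81, 0.957 and 2.86 in DMSO and 673, 588 and 673 in IFNa. TLR3 rose 11.05-fold and TMEM173, the adapter STING, 3.28-fold. The adapter MAVS, which DDX58 and IFIH1 share, read 1143, 1254 and 1313 in DMSO and 1149, 1187 and 1401 in IFNa, overlapping ranges (log2 fold change 0.01, SE 0.09, limma adjusted p = 0.958). NLRX1, a mitochondrial relative of the NOD proteins, fell by 0.71.

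MHC class I presentation rose at nearly every step. Of 22 genes tested 21 rose, 18 at least 2-fold, with a median of 2.10. HLA-B read 2486, 2545 and 2454 in DMSO and 26719, 27322 and 28455 in IFNa. B2M, the light chain of every class I molecule, read 9877, 9975 and 9947 and 39232, 39096 and 40755. HLA-C rose by 2.36 on the log2 scale, HLA-E by 2.48 and HLA-G by 3.93. NLRC5, the factor that turns on class I genes, went from 247, 269 and 286 to 3644, 3781 and 3680.4. TAP1, a chain of the peptide transporter, read 1008, 987 and 892 and 21822, 22369.6 and 21747. The immunoproteasome subunits PSMB8, PSMB9 and PSMB10 rose by 2.28, 4.32 and 2.203, and the trimming enzymes ERAP1 and ERAP2 by 1.36 and 1.89. Of 14 constitutive proteasome subunits 6 rose (42.9%) and 8 did not pass, with a median of 0.05 that turned to -0.09 after quantile normalization and -0.14 with scaling to the library total. The 5 subunits PSMA2 to PSMA6 rose by 0.56 (PSMA3) to 0.90 (PSMA6). PSMA2 lost its call without replicate 3 of every group (0.42).

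MHC class II genes, which mainly immune cells express, rose in 11 of 16 tested. CIITA, their master factor, read 161, 148 and 215 in DMSO and 536, 499.7 and 676 in IFNa. CD74, the invariant chain, read 2469.7, 2209 and 2509 and 6781, 6361 and 9532. CTSS, the protease that trims CD74, rose 6.76-fold. HLA-DRA rose by 1.08 on the log2 scale and LGMN, a lysosomal protease, by 1.61. Leukocyte markers were few beside them. Of 8 deposited leukocyte markers, 3 could be tested, PTPRC (CD45), CD14 and CSF1R, none passed, and the summed level of the 8 was 243.1 to 278.4 normalized reads in DMSO and 196.8 to 304.4 in IFNa. PTPRC itself read 15.4, 9.57 and 5.72 in DMSO and 23.5, 16.2 and 20.7 in IFNa (log2 fold change 0.99, limma adjusted p = 0.0507). It was called higher in edgeR (0.94), with a pseudocount of 8 (0.65), after quantile normalization (1.08) and without DMSO replicate 1 (1.31). It was also called, at 0.99, without Combination replicate 1 or 2, without the variance trend, with the replicate block and with the IFNa and DMSO libraries fitted alone. None of the 8 was at 0 in all 12 libraries. The labels name OVCAR-3 as the cells of every library, and the source of these marker reads was not tested.

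Surface ligands of T cells rose in 13 of 16 tested genes. CD274, the inhibitory ligand PD-L1, read 35.4, 28.7 and 20.02 in DMSO and 315, 342 and 318 in IFNa, 11.5-fold (SE 0.20, limma adjusted p = 2.69e-09). LGALS9, the lectin galectin-9, went from 586, 593 and 569 to 8532, 8602 and 9627. The butyrophilins BTN3A1, BTN3A2 and BTN3A3, which activate gamma delta T cells, rose by 1.72, 1.41 and 1.90 on the log2 scale. VTCN1, the inhibitory ligand B7-H4, did not pass (0.18). Ligands and adhesion molecules of natural killer cells passed in 6 of 12 (50%, against 46.9% of all genes), and all 6 rose (against 25.4%). CEACAM1 rose 18.7-fold, while MICA (0.09), ULBP1 (0.07) and ULBP2 (0.07) did not pass.

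Chemokines rose in 14 of 15 tested genes, each of the 14 at least 2-fold, with a median of 3.12. CXCL10, which draws activated T cells through the receptor CXCR3, read 14.5, 11.5 and 14.3 in DMSO and 15163, 15748 and 13857 in IFNa. CXCL11, a ligand of the same receptor, was counted at 2 reads over the DMSO libraries and rose 2331-fold by the ratio of scaled reads (95% interval from counting error 644.8 to 19250.0). CXCL9, the remaining ligand of CXCR3, had a mean under 10 over the 12 libraries and was not tested. CCL5 read 3.63, 7.65 and 0.953 and 53.03, 66.6 and 34.9. Chemokines that attract neutrophils rose as well, with CXCL1 at 2.62, CXCL2 at 3.42 and CXCL3 at 3.12 on the log2 scale. CCL20 read 7.26, 12.4 and 5.72 in DMSO and 121, 143 and 171 in IFNa. The groups did not overlap in CCL5 or CCL20, whose DMSO levels rest on few reads.

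Among interleukins, growth cytokines and interferons, 15 of 20 tested genes rose and none fell. IFNL1, a type III interferon, read 4.54, 0.957 and 0 in DMSO and 77.5, 74.2 and 74.2 in IFNa. IFNL2 had 0 reads in all DMSO libraries and was at least 22.05-fold higher with IFNa, against a floor of 3 reads over the group. IL6 went from 42.6, 32.5 and 15.3 to 330.4, 399.8 and 213, TNF from 59.9, 43.1 and 41.95 to 367, 439 and 287 and LIF from 2628, 2415 and 2031 to 10839, 10111 and 10512. None of these ranges overlapped. IL15 and its receptor IL15RA, which sustain natural killer cells, rose by 1.03 and 2.49 on the log2 scale. IL4I1, a secreted amino acid oxidase, rose 18.9-fold, and IL11 (0.03) did not pass.

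In the TNF superfamily, 13 of 16 tested genes rose and 1 fell. TNFSF10, the death ligand TRAIL, read 521, 482 and 573 in DMSO and 19923, 18510.0 and 20516 in IFNa. Its death receptors TNFRSF10A and TNFRSF10B rose by 1.78 and 0.69 on the log2 scale. The decoy receptor TNFRSF10D fell, from 447, 444 and 375 to 97.9, 116 and 123 (3.73-fold lower, SE 0.12, limma adjusted p = 1.21e-08). Ligand, receptors and decoy thus moved in different directions, with no overlap between groups in any of them. TNFSF13B, the B cell factor BAFF, had 0 reads in DMSO and was at least 244.4-fold higher with IFNa. FAS rose 3.19-fold and CD40 2.62-fold.

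Complement and coagulation regulators rose in 19 of 21 tested genes. SERPING1, the inhibitor of C1, rose 10.6-fold, the proteases C1S and C1R by 2.72 and 1.73 on the log2 scale, and CFB by 2.67. F3, tissue factor, read 463, 399.9 and 332 in DMSO and 1977, 1943 and 1427 in IFNa. PLAUR and PLAU, the urokinase receptor and its ligand, rose by 2.09 and 1.38. Activators and an inhibitor of complement were thus among the risers.

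Enzymes of tryptophan use did not move together. IDO1, which starts the kynurenine pathway, read 20.9, 23.9 and 31.5 in DMSO and 3336, 3037 and 3878 in IFNa, 131-fold. WARS, which loads tryptophan on its transfer RNA, went from 4824, 4809 and 4819 to 39237, 36881 and 47271. Of the later enzymes KMO rose by 0.92 on the log2 scale, and AADAT and CCBL1 fell by 0.48 and 0.55, which gave 3 rises and 2 falls in 7 genes tested. CCBL1 lost its call without DMSO replicate 1 (-0.44). Of 17 NAD and nucleotide enzymes 11 rose (64.7%, against 25.4% over all genes tested) and 3 fell (17.6%, against 21.5%). CD38, which consumes NAD, rose 9.48-fold and NAMPT, which salvages it, 2.41-fold, while the synthase NMNAT1 fell by 0.47 on the log2 scale. TYMP, a thymidine phosphorylase, read 47.2, 31.6 and 35.3 in DMSO and 289, 244 and 443 in IFNa.

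Genes of apoptosis and pyroptosis rose in 20 of 34 tested (58.8%, against 25.4% over all genes tested). Another 7 fell (20.6%), near the 21.5% of all genes. XAF1, which antagonises the caspase inhibitor XIAP, had the largest fold change of all genes tested, from 1.81, 0.957 and 1.91 in DMSO to 4013, 3876 and 4685 in IFNa, on 5 reads in all DMSO libraries together. CASP1 and CASP4, caspases of pyroptosis, rose by 3.11 and 1.97 on the log2 scale, CASP8 by 1.02, and MLKL, the effector of necroptosis, by 2.14. BIRC3, an inhibitor of cell death, went from 46.3, 46.9 and 45.8 to 444, 504 and 300.1, MCL1, which also protects from cell death, rose 2.04-fold and CFLAR, which blocks CASP8, 2.21-fold. Among the BH3-only genes PMAIP1, the protein NOXA, rose by 1.40, while BMF read 2911, 2578 and 2928 in DMSO and 427, 393 and 452 in IFNa. CASP9, the caspase of the apoptosome, fell by 0.61, and BBC3, the protein PUMA, did not pass (0.16).

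NF-kB subunits and feedback genes rose in 19 of 20 tested, with a median of 0.92. TNFAIP3, the inhibitor A20, read 753, 701 and 605 in DMSO and 4122, 4227 and 3806 in IFNa. RELB and NFKB2, of the non-canonical arm, rose by 1.48 and 1.08 on the log2 scale, and RELA by 0.37. AP-1 and immediate early genes rose in 20 of 23 tested, with a median of 0.87. EGR2 rose 6.41-fold, MYC went from 898, 889.8 and 876 to 2907, 2936 and 3012, and FOS from 327, 306 and 375 to 786, 627 and 1078. FOSB (0.19) and NR4A2 (0.19) did not pass.

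Genes of MAPK feedback and ligands of the EGF receptor rose in 26 of 30 tested, with a median of 0.97. AREG, a ligand of the EGF receptor, read 5.44, 3.83 and 4.77 in DMSO and 39.8, 33.3 and 41.5 in IFNa. EREG read 9.07, 4.78 and 3.81 and 31.6, 35.2 and 60.01, and HBEGF, EPGN, BTC and TGFA rose by 1.59, 1.996, 1.47 and 0.77 on the log2 scale. DUSP6, a phosphatase that switches off ERK, read 104, 96.6 and 108 and 562, 531 and 595. SPRY1 and SPRY2, which restrain the pathway, rose by 1.98 and 1.27, and ETV4 and ETV5, its transcription factors, by 1.19 and 1.95. ERBB2, the co-receptor HER2, fell by 0.28.

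**Figure D4:**
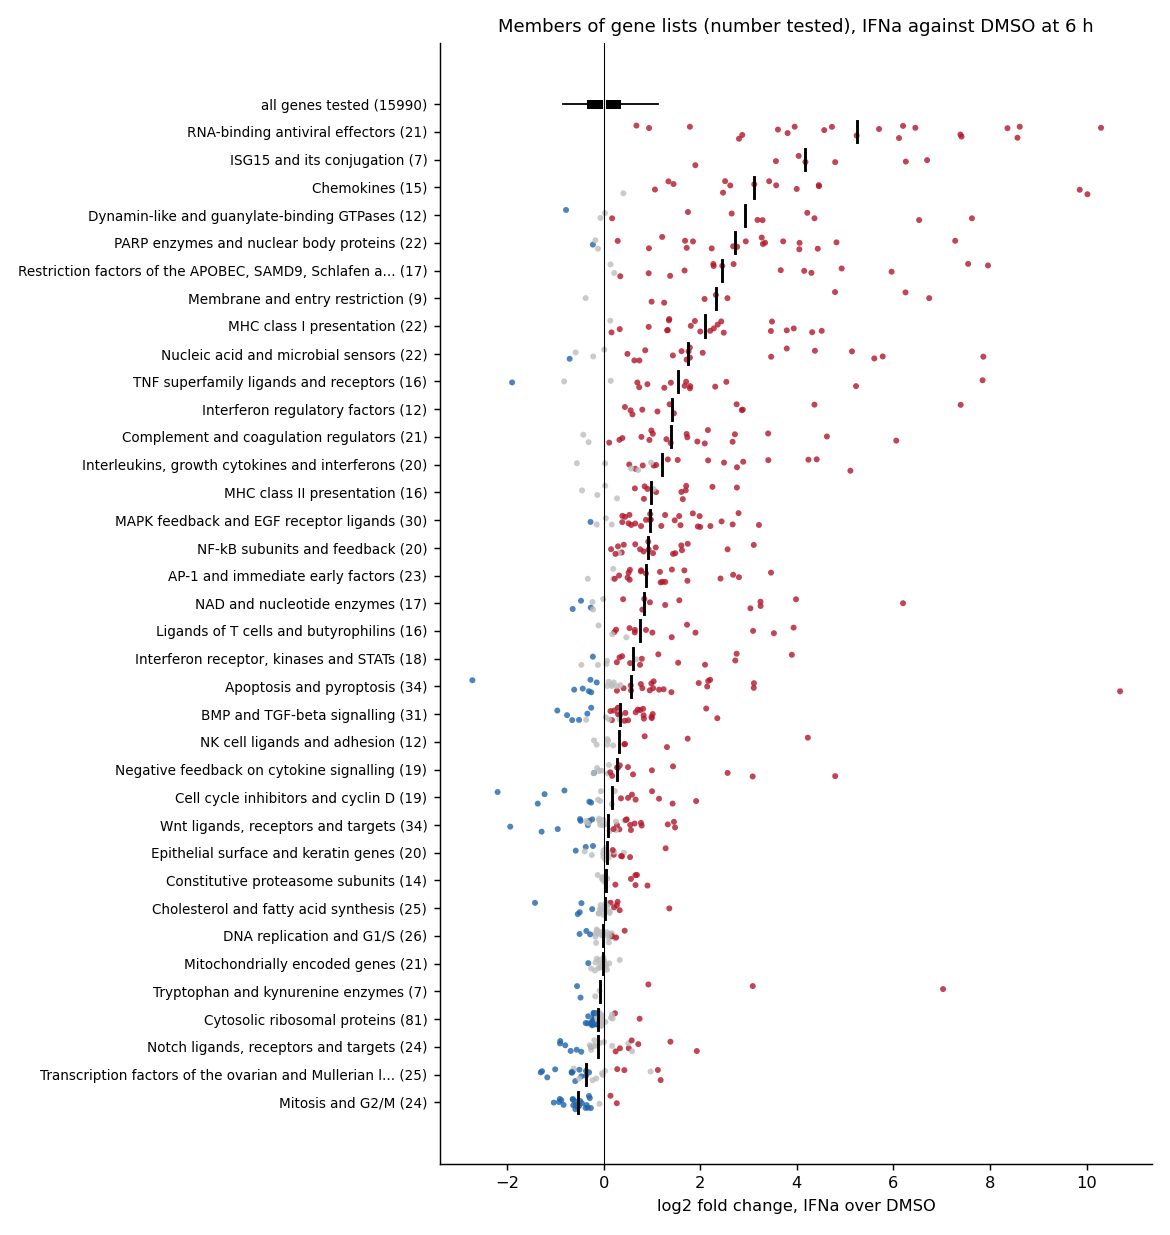
Log2 fold change of IFNa over DMSO for the tested members of 36 gene lists, 1 point per gene (red higher, blue lower, grey not past the threshold), with a black line at each list's median and the number tested in brackets; the top bar gives the 5th to 95th percentile of all genes tested, with the middle 50% thick. Antiviral, ISG15 and chemokine genes lie far right of that bar, and mitosis genes and lineage factors have the lowest medians of the lists drawn, which leave out ZNF genes, noncoding RNAs and leukocyte, fibroblast and endothelial markers.

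In signalling of development, falls in the Wnt list and in the BMP and TGF-beta list lay near the share of all genes. Of 34 Wnt genes 13 rose (38.2%, against 25.4% over all genes tested) and 8 fell (23.5%, against 21.5%). With scaling to the library total 6 Wnt genes rose and 13 fell, and 5 fell without DMSO replicate 2. LGR5, a Wnt co-receptor, read 152, 141 and 113 in DMSO and 35.7, 42.8 and 26.2 in IFNa, 3.83-fold lower, and FZD2 fell by 1.29 on the log2 scale. DKK1, a secreted Wnt inhibitor, rose 2.74-fold and FZD5 2.78-fold. Of 24 Notch genes 7 rose and 7 fell, 29.2% each against 25.4% and 21.5% over all genes tested. With scaling to the library total 12 fell. HES4 rose by 1.93, and HES6 and HEY2 fell by 0.91 and 0.90. Of 31 BMP and TGF-beta genes 20 rose (64.5%) and 6 fell (19.4%), and 13 rose with scaling to the library total. INHBA, a subunit of activin, read 5.44, 2.87 and 2.86 and 24.5, 19.99 and 22.9. GDF15, a stress cytokine, rose by 2.12, ID1, a target of BMP signals, by 1.01, and BMP7 fell by 0.96.

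Transcription factors of the ovarian and Müllerian lineage fell in 13 of 25 tested (52%, against 21.5% over all genes), and 4 rose. FOXJ1, of ciliated cells, read 259, 301 and 351 in DMSO and 97.9, 106 and 182 in IFNa. It fell by 1.28 on the log2 scale, EHF by 1.01 and TWIST1 by 1.31. PAX8, the defining factor of the lineage, rose by 0.28, and did not pass after quantile normalization (0.02) or scaling to the library total (0.09). Markers of other cell types were read beside these. Of 10 fibroblast markers 4 were tested, COL1A1 rose 2.04-fold and COL1A2 fell by 0.81, and the summed level was 1260 to 1393 normalized reads in DMSO and 1793 to 2461 in IFNa. Of 6 endothelial markers 4 were tested, VWF, ESAM and CDH5 fell by 1.14, 0.99 and 0.53 (1 of these calls held without DMSO replicate 2 or 3 or IFNa replicate 1 or 3), and the sum was 312.9 to 400.5 in DMSO and 208.4 to 281.7 in IFNa. As the labels name OVCAR-3 for every library, these are levels of marker transcripts and not amounts of other cell types. The source of these reads was not tested.

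Most genes of mitosis fell, and most genes of DNA replication did not pass. Among 24 mitosis and G2/M genes 21 fell (87.5%, against 21.5%), 2 rose and 1 did not pass, with a median of -0.53. No member rose without DMSO replicate 1 or 3, and 1 rose without DMSO replicate 2, FC-A replicate 2, any 1 of the IFNa libraries or Combination replicate 1 or 2. CENPF, a kinetochore protein, read 9909, 10493 and 10688 in DMSO and 5977, 5739 and 5185 in IFNa. MKI67, the proliferation marker Ki-67, read 16674, 16632 and 18296 and 11393, 12438 and 10527, and AURKA, a spindle kinase, 4013, 4197 and 3852 and 2639, 2751 and 2346. The groups did not overlap in any of the 3. CENPF fell by 0.88 on the log2 scale, MKI67 by 0.59, AURKA by 0.64 and CCNB1, the cyclin of entry into mitosis, by 0.29. Of 26 genes of replication and G1/S 3 rose, 3 fell and 20 did not pass, with a median of -0.01. Rises numbered 1 without any 1 of the DMSO libraries, FC-A replicate 2 or IFNa replicate 1 or 2, and 9 without replicate 3 of every group, and 9 genes fell under quantile normalization or scaling to the library total. E2F2, a driver of S phase, fell by 0.50, and PCNA (0.01) did not pass. Among inhibitors and D cyclins CDKN1A, the inhibitor p21, read 903, 838 and 903 and 3245, 3146 and 3581. CDKN2C, the inhibitor p18, fell from 166, 172 and 176 to 36.7, 41.9 and 31.6 (4.60-fold lower, SE 0.15, limma adjusted p = 1.87e-08). CCND3 rose by 1.14, and CDKN1B fell by 0.30.

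The other large falls belonged to no list. SLC40A1, the iron exporter ferroportin, read 198, 169 and 216 in DMSO and 36.7, 38.1 and 48.01 in IFNa. LMO1 read 672, 695 and 786 and 99.9, 86.6 and 115, and RBBP8NL 629, 694 and 642 and 120.3, 128 and 121. STON1, of endocytosis, fell 4.81-fold, SEMA6D, a semaphorin, 3.84-fold, YPEL1 4.26-fold and AATK, a kinase, 3.68-fold. Of the 20 largest falls 9 had a promoter in the table, and none of these held the core. The largest rises outside the lists were SLC15A3, a lysosomal peptide transporter, from 9.07, 8.61 and 5.72 to 1808, 1982 and 1651, and FAM230A, from 0.907, 0.957 and 1.91 to 347, 339 and 358. Both had a DMSO mean under 10 and passed the filter through other libraries, where they had to be higher. Their DMSO levels rest on few reads, 25 for SLC15A3 and 4 for FAM230A over the group.

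Housekeeping groups changed by small amounts. Of 81 cytosolic ribosomal protein genes 34 fell (42.0%, against 21.5%) and 2 rose, with a median of -0.12. Falls numbered 17 without DMSO replicate 1, 19 without DMSO replicate 3, 73 after quantile normalization and 75 with scaling to the library total, and RPL3 read 61032, 58855 and 64525 in DMSO and 47419.9, 48218 and 50164 in IFNa. Of 21 transcripts of the mitochondrial genome 1 fell and 20 did not pass, 4 fell without IFNa replicate 3, and 10 fell after quantile normalization. Of 25 genes of cholesterol and fatty acid synthesis 6 rose and 5 fell, but 1 rose and 14 fell after quantile normalization. ABCG1, a sterol exporter, fell by 1.43 on the log2 scale. Of 426 zinc finger genes named ZNF 103 rose (24.2%) and 63 fell (14.8%), shares near or under those of all genes, and 46 rose and 146 fell with scaling to the library total.

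Coding and noncoding genes were set side by side. Of 13360 protein-coding genes 28.0% rose and 22.1% fell, of 543 long intergenic RNAs 14.0% and 21.2%, and of 715 antisense genes 8.11% and 23.8%. Coding genes are read more deeply, so the shares were also taken among genes with a DMSO mean of 10 to 100 normalized reads. There 14.3% of coding genes, 9.02% of long intergenic RNAs and 5.56% of antisense genes rose, and 22.5%, 18.8% and 19.4% fell. After scaling to the library total, 37 antisense genes rose and 291 fell, in place of 58 and 170. Whether the counting used strand is not given, so antisense genes cannot be told apart from their partners with certainty. Of 8 tested RNAs on a list of interferon-linked noncoding genes 5 rose, with LUCAT1 at 3.08 on the log2 scale and HCP5 at 0.95. The GBP1 pseudogene GBP1P1 went from 4.54, 7.65 and 4.77 to 1097, 1089 and 1175. LUCAT1 and GBP1P1 had a DMSO mean under 10 and passed the filter through other libraries, where they had to be higher. Without these 2, rises numbered 3 of 6.

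Many genes with large rises had neighbours that rose too. In the RefSeq order of coding genes, 199 of 784 genes with at least 2-fold rises (25.4%) had a direct neighbour that also rose at least 2-fold, against 7.11% of 12624 other genes that had such a neighbour. Of 381 genes with at least 2-fold falls, 32 (8.4%) lay beside another, against 4.01%. Neighbours often are members of 1 family, and no test was made. The rises formed 15 runs of 3 or more genes. The longest held 4 genes each, EPGN, EREG, AREG and BTC on chromosome 4, and PSMB8, TAP1, PSMB9 and HLA-DMB on chromosome 6. Families filled others, such as OAS1, OAS3 and OAS2 on chromosome 12 and APOBEC3D, APOBEC3F and APOBEC3G on chromosome 22. Some runs held unlike genes, such as PATL2, B2M and TRIM69 on chromosome 15 (3.15, 1.998 and 2.68 on the log2 scale) and CAV2, CAV1 and MET on chromosome 7 (1.41, 1.44 and 1.43). Without IFNa replicate 3 the rise of HLA-DMB was 1.30 and did not pass. Runs and their genes were named after their values were seen.

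The same effect can be read in the 6 other libraries, as the Combination against FC-A, whose fold changes share no library with IFNa against DMSO. The calls of both contrasts use the same spread, estimated from all 12 libraries, so the calls are not independent. The Combination against FC-A called 7818 genes (48.9%). Of the 4067 genes higher with IFNa alone, 3617 (88.9%) were also higher there, and of the 3440 lower ones 2685 (78.1%) were also lower. None was called in the opposite direction, and all 169 genes with at least 8-fold rises were called again. Of these, 56 had a DMSO mean under 10 and passed the filter through other libraries, the Combination among them. Their second call was thus partly set by the filter, as it was for 164 of the 4067 higher genes. The other 113 of the 169 had a DMSO mean of at least 10. Across the 15990 genes, which are not independent, the log2 fold changes of the contrasts had a Pearson r of 0.949 and a slope of 0.987. STAT2 rose by 2.72 without FC-A and 2.85 with it, CD274 by 3.52 and 4.02, and AREG by 2.79 and 2.94. CENPF fell by 0.88 and 0.94, and TNFRSF10D by 1.90 and 1.95. The difference between the contrasts was itself tested as an interaction. No gene passed in limma (627 at an unadjusted p under 0.05) or in edgeR (626), and 3 passed in DESeq2 (493), with KLHL29 and CPA4 among them, named after their values were seen. The counts in brackets are each under a share of 0.05 of the 15990 genes, the share that p-values with no interaction would give. CPA4 had a log2 fold change of 0.66 without FC-A and 1.15 with it (limma interaction adjusted p = 0.593, DESeq2 adjusted p = 0.0316). A p that misses the threshold does not show that the effects were alike.

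**Figure D5:**
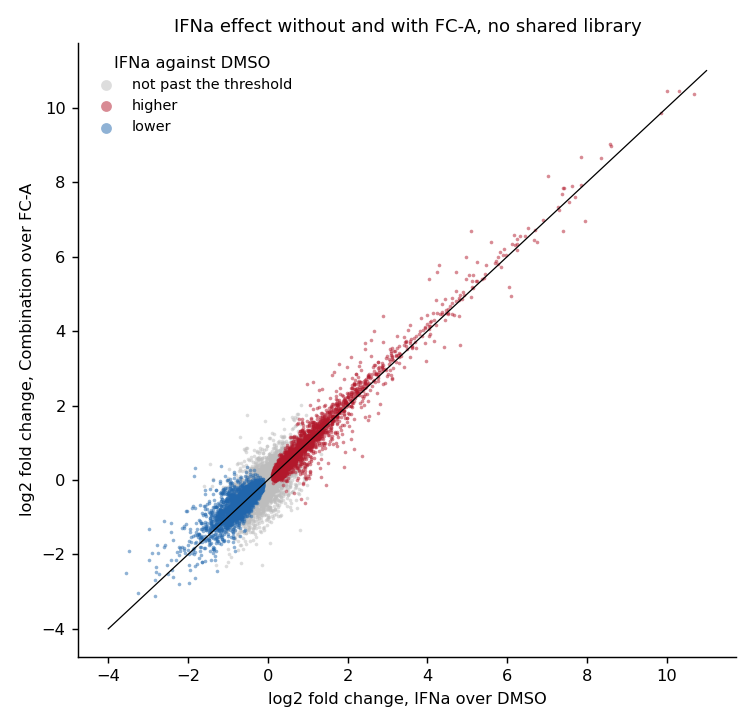
Log2 fold change of IFNa over DMSO (horizontal axis) against that of the Combination over FC-A (vertical axis), 1 point per gene tested, coloured by the call for IFNa against DMSO, with the line of equality. Points follow the line over the whole range, and no gene of either colour was called in the opposite direction.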

How the data were processed

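Poly(A) RNA libraries were made from 100 ng of RNA with a stranded kit, per the labels. The authors deposited signal values, which are normalized counts of 28035 genes in each library. Per the submitters' processing notes, the tools were DESeq2 1.24.0, STAR 2.7.3, FastQC and bcl2fastq 2.20, with build hg19, and the sources used here do not give the counting program or annotation. Times 1 factor per library, 100% of values lay within 0.01 of a whole number, so reads were recovered, and their sum is the depth given. The deposited fold change and p columns were not used.

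Genes with a mean of at least 10 over the 12 libraries were tested as log2(normalized reads + 1), which understates the change of low genes. limma 3.58.1 in R 4.3.3 fitted 4 group means with a variance trend, with two-sided p adjusted by the Benjamini-Hochberg method and a threshold of 0.05. The fit was tested on simulated data. edgeR 4.0.16 and DESeq2 1.42.0 on the recovered reads, other pseudocounts (0.5 and 8), filters and scalings, the replicate block and each library left out were alternatives. A gene with 0 DMSO reads is compared with a floor of 3 reads over the group, and intervals cover counting error only.

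The comparison, the 41 gene lists and the rules were chosen with earlier results of these data known. Lists are described by counts and medians with no set test. Named genes are the 20 largest rises and falls that passed the threshold, averaged 50 or more and did not overlap, up to 4 members of each list in each direction, members of lists of at most 25 symbols, and genes of the receptor, ISGF3 and best known targets. Outside the rule, and chosen after their values were seen, are BBC3, BTC, CASP4, CASP8, CFLAR, DHX58, EPGN, ETV4, ETV5, HBEGF, IL11, IL15, IL15RA, LIF, MAVS, MCL1, MLKL, PCNA, PMAIP1, SPRY1, SPRY2, TGFA, TLR3, TMEM173 and TNF. Some genes are not reported here. Promoters and gene order came from RefSeq (GRCh38.p14), matched by symbol, and no coordinate was converted from hg19.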

Additional observations from a re-analysis of the deposited data

How the results depend on the processing

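Every call of IFNa against DMSO that stood under another setting kept its direction, except 24 calls that reversed after quantile normalization, none of them in a gene named here. At least 2-fold falls numbered 315 with a pseudocount of 8, 800 with no filter on low values, 230 with a mean of at least 50 and 864 with scaling to the library total, in place of 511. Rises of that size numbered 843, 1215, 727 and 728 in the same settings, in place of 928. Scaling to the library total also gave 2386 rises and 6961 falls of any size, and the cause was not tested. edgeR called 3965 higher and 3568 lower, and DESeq2 3968 and 3420. Leaving out each library in turn gave 6183 to 7781 calls, 3525 to 4235 higher and 2658 to 3546 lower, with 908 to 940 at least 2-fold rises, 454 to 621 such falls, and 6664 to 8122 calls for the Combination against FC-A. An arm with 2 libraries then borrows its spread from the other groups.

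With the replicate number as a block, 8619 genes were called. Same-numbered DMSO and IFNa libraries deviated together with correlations of 0.0499, 0.113 and 0.192, so the numbers were not taken as pairs, although each library correlated best with its own number. The interaction called 1 gene with the replicate block, 1 without replicate 3 of every group (NOV), and 3 in DESeq2, in place of 0. NOV was named after its values were seen.

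In the last 100 upstream bases the core stood in 18.8%, 9.17%, 2.06% and 1.04% of genes from the largest to the smallest class of rise, 0.541% of genes not past the threshold, 0.268% and 0% of falls under and over 2-fold, and 0.887% of all genes tested. Counting any listed start, an alternative chosen after seeing the data, gave 39.3% for rises of at least 8-fold and 15.6% for 4 to 8-fold rises. It gave 6.43% for 2 to 4-fold rises, 4.19% for smaller rises and 2.4% for genes not past the threshold. Falls under 2-fold had 1.83%, falls of at least 2-fold 2.37% and all genes tested 3.29%. Among genes with a mean of at least 50 the share in falls of at least 2-fold was 0.613%. Weakly expressed genes were measured less precisely, and the median standard error was 0.262 at a DMSO mean of 10 to 100 and 0.06 at 1000 or more.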

Other observations

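Some members of the interferon pathway were read at very low levels with or without IFNa, and had means too low to test. MB21D1, the DNA sensor cGAS, read 0.907, 1.91 and 0 normalized reads in DMSO and 2.04, 0.952 and 2.18 in IFNa. AIM2, another DNA sensor, was at 0 in every DMSO library and in IFNa replicates 1 and 2, and read 2.18 in IFNa replicate 3. IFNB1, interferon beta, was at 0 in DMSO and read 0, 0.952 and 5.46 in IFNa. KYNU, an enzyme after KMO in the kynurenine pathway, read 1.81, 0.957 and 4.77 in DMSO and 2.04, 0.952 and 0 in IFNa. CD80 and CD86, ligands that activate T cells, stayed under 2 normalized reads in each of these libraries.

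Others left out by the filter stood apart between the groups at low level. CXCL9, a ligand of CXCR3, read 0, 0.957 and 0 in DMSO and 23.5, 18.1 and 21.8 in IFNa. IFNL3 was at 0 in DMSO and read 14.3, 14.3 and 26.2 in IFNa, and USP41, a near copy of USP18, read 0, 1.91 and 0 in DMSO and 12.2, 12.4 and 12 in IFNa. IL7, a growth factor of lymphocytes, read 2.72, 0 and 0.953 in DMSO and 11.2, 20.9 and 18.5 in IFNa. TSLP, an epithelial cytokine, went the other way, with 9.98, 7.65 and 11.4 in DMSO and 2.04, 5.71 and 2.18 in IFNa. These values are given with no test.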
